A study of Mus musculus with 8 samples.

Results

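Ionotropic glutamate, GABA-A and glycine receptors and the metabotropic glutamate receptors were examined as 31 listed genes in open-chromatin peak lists of retinal ganglion cells (RGCs), out of 21900 protein-coding genes in the reference annotation. Every peak that overlapped a listed gene or the 10 kb on either side of it was taken. Peaks of the 8 lists were merged wherever they shared at least 1 base, which gave 707 regions at the receptor genes out of 189914 in the genome. Adult C57BL/6J mice had received an intravitreal injection of AAV2-GFP (3 libraries, the control), AAV2-Ezh2 (3 libraries) or AAV2-Ezh2-Y726D (2 libraries). Ezh2 is the methyltransferase that places the repressive H3K27me3 mark, and Y726D is a catalytically dead form of it. All 3 groups underwent optic nerve crush, 2 weeks past the injection, RGCs were enriched by cell sorting 3 days after the crush, and 50000 cells entered each ATAC-Seq library, in which a transposase cuts accessible chromatin. The vector enters other retinal cells besides RGCs, and control cells carried virus and injury as well, so no uninjured or uninfected state was part of these data. No source used here says whether the libraries of a group came from separate mice, so every p-value measures the spread between libraries, which may be technical.

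Glutamate is the transmitter by which bipolar cells excite RGCs, while amacrine cells inhibit them with GABA and glycine. AMPA, NMDA and kainate receptors are cation channels that glutamate opens, metabotropic glutamate receptors signal through G proteins, and GABA-A and glycine receptors are chloride channels. Each channel is assembled from several subunits, and the choice of subunits sets its kinetics, calcium entry and drug sensitivity. Entry of calcium through glutamate receptors is a known contributor to RGC death under injury. A peak near a gene marks accessible chromatin and not the amount of its RNA.

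The lists held 112939 to 135895 peaks, without read counts, so sequencing depth was unknown and peak numbers were taken per 100000 peaks of the list. Of 10 RGC marker genes, 9 or 10 had a peak within 1 kb of a gene end in every list, including Rbpms, Thy1, Pou4f1 and Slc17a6. Markers of other retinal cells had peaks there in every list as well: 7 or 8 of 8 for bipolar cells and for amacrine cells, and 7 of 8 for Müller glia. For rods the numbers were 8 of 8 in each GFP list, 6, 7 and 6 in the Ezh2 lists and 6 and 8 in the Ezh2-Y726D lists. The rod marker Cnga1 had a peak in every GFP list and in no Ezh2 list. Of 10 markers of microglia and macrophages, 5 to 8 had such a peak in the GFP lists and 7 or 8 in the Ezh2 lists. In both Ezh2-Y726D lists 2 of the 10 did: C1qc, which GFP replicate 1 lacked, and P2ry12, which the Ezh2 lists lacked. Of those without one there, Cx3cr1, C1qb and Ptprc were present throughout the other groups. Tmem119 and Trem2 were also absent from GFP replicate 2, and Csf1r from the GFP lists. C1qa was missing from some GFP and Ezh2 lists, and Aif1 from all lists. Markers of T cells numbered 7 or 8 of 8 in the GFP lists, 8 in each Ezh2 list and 3 in both Ezh2-Y726D lists. The numbers for these immune cells moved with the group in every comparison below that involves Ezh2-Y726D, and their part in the results was not tested. In sorted pools such as these, a peak in fewer cells and a weaker peak per cell cannot be told apart.

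Accessible regions at the receptor genes lay mostly inside the transcribed genes. Of the 707 regions, 612 (86.6%) were inside a gene, 49 in the flanks, 28 within 1 kb of an annotated start, 10 within 1 kb of an end of a gene for which no start was listed, and 8 at the start of another gene. Of them, 222 (31.4%) had a peak in all 8 lists, 376 in at least 5 and 163 in 1 list. The starts were the constant part: 30 of the 31 genes had a region in all 8 lists at a start or gene end. The exception was Gabra6, a subunit best known from cerebellar granule cells, which had 0 to 2 peaks per list and none at its start. The regions with the highest ranks were mostly inside genes. Ranks are given as percentiles of the peak's fold enrichment within its own list, where 100 is the strongest peak. A region inside Grin2b, the NMDA subunit GluN2B (chr6:135907215-135908228), averaged percentile 96.4 over the 8 lists, and one inside Grik2, the kainate subunit GluK2 (chr10:49256039-49256995), percentile 94.6. For GABA-A receptors the strongest region was inside Gabra5 (chr7:57473631-57474698), at percentile 94.5, and for metabotropic receptors in the flank of Grm4 (chr17:27520367-27521149), at 93.9. The strongest glycine receptor region was the start of Glra3 (chr8:55939773-55941156) at percentile 93.1, and the strongest AMPA region was inside Gria1 (chr11:57297889-57298932) at 91.0. The Grin2b region stood at 95.4, 96.4 and 96.0 with GFP, 97.8, 98.3 and 96.7 with Ezh2 and 93.3 and 97.2 with Ezh2-Y726D. The Gabra5 region stood at 95.2, 96.2 and 95.0 with GFP, 96.4, 89.3 and 91.6 with Ezh2 and 97.5 and 95.2 with Ezh2-Y726D, and the Grm4 region at 93.2, 93.5 and 96.2 with GFP, 97.2, 94.2 and 90.3 with Ezh2 and 94.1 and 92.7 with Ezh2-Y726D. These 3 lay near the top of every list. The Glra3 start was at 95.4, 92.2 and 95.9 with GFP, 93.2, 97.4 and 95.3 with Ezh2 and 90.7 and 84.6 with Ezh2-Y726D, and the Gria1 region at 92.5, 82.6 and 83.8 with GFP, 94.7, 94.8 and 93.1 with Ezh2 and 93.9 and 92.6 with Ezh2-Y726D. The Grik2 region is described with the ranks, and the 5 others did not pass the test of rank in any comparison.

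The first question was whether the receptor genes as a group held more or fewer peaks after either form of Ezh2. They held 382, 362 and 443 peaks in the 3 GFP lists, 390, 409 and 443 in the Ezh2 lists, and 531 and 535 in the Ezh2-Y726D lists. The Ezh2-Y726D lists stood above all others, and the GFP and Ezh2 lists overlapped. Relative to list length this was 327.3 ± 5.95 peaks per 100000 (SD, n = 3) with GFP, 318.5 ± 8.75 (SD, n = 3) with Ezh2 and 420.8 ± 7.28 (SD, n = 2) with Ezh2-Y726D. The peaks covered 220.7 ± 31 kb, 228.2 ± 22.9 kb and 297.1 ± 18.3 kb, respectively (SD). Their median percentile was alike, at 44.3 to 48.0 in the GFP lists, 44.7 to 46.2 in the Ezh2 lists and 43.0 to 44.3 in the Ezh2-Y726D lists.

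By class, the Ezh2-Y726D lists lay above every GFP and every Ezh2 list for 5 of the 6 classes. AMPA receptor genes (3 genes, 91 regions) held 32.2 ± 1.77 peaks per 100000 with GFP, 38.7 ± 3.49 with Ezh2 and 50.2 ± 5.04 with Ezh2-Y726D, and here the Ezh2 lists also stood clear of the GFP lists. NMDA receptor genes (6 genes, 124 regions) held 63.4 ± 4.05, 60.1 ± 0.958 and 79.0 ± 2.91. Kainate receptor genes (4 genes, 160 regions) held 78.2 ± 1.68, 71.6 ± 5.21 and 99.1 ± 0.545. The metabotropic genes (6 genes, 181 regions) were at 77.8 ± 0.0757, 81.2 ± 4.65 and 103.8 ± 0.707. GABA-A receptor genes (9 genes, 121 regions) were at 57.2 ± 3.11, 51.3 ± 2.11 and 71.0 ± 1.74. Glycine receptor genes (3 genes, 30 regions) were the exception, with 18.4 ± 2.98, 15.6 ± 1.13 and 17.8 ± 0.962 and overlapping lists. All these values are SD over 3, 3 and 2 lists, and no test was made on a class sum. How often sets of other genes separate in this way was not counted. Of all tested genes of at least 100 kb, 10.8% had more peaks with Ezh2-Y726D than with GFP.

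**Figure D1:**
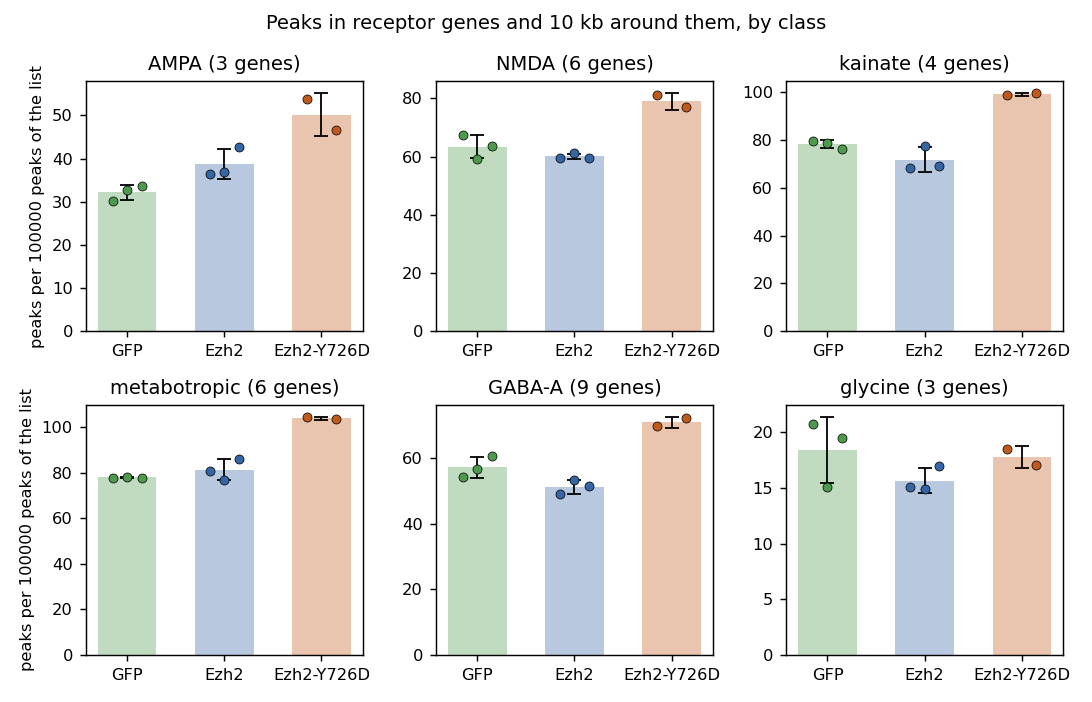
Peaks in receptor genes and 10 kb around them, per 100000 peaks of the list, for 6 receptor classes; each point is 1 list, bars are group means and error bars SD over 3 GFP, 3 Ezh2 and 2 Ezh2-Y726D lists. The Ezh2-Y726D points lie above all other points for every class but the glycine receptors, where the groups overlap. How often sets of other genes separate in this way was not counted.

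Gene by gene, the number of peaks was compared with limma on log2 peak numbers relative to list length, over all 11684 protein-coding genes with a mean of at least 3 peaks. Of the 31 receptor genes, 28 could be tested. Gabra4, Gabra6 and Gabrg1 fell under the minimum, with 1 to 4, 0 to 2 and 1 to 3 peaks per list. In Ezh2-Y726D against GFP, 11 of the 28 genes had more peaks at an adjusted p under 0.05, where 3.0% of all genes tested did. None had fewer, where 9.9% of all genes did, and 2 of the 28 were fewer at an unadjusted p under 0.05. With peak numbers not scaled to list length, 3 of the 28 had more. The median difference over the 28 genes was 0.36 on the log2 scale against -0.07 over all genes, and 20 of the 28 differences were positive. The share of positive differences over all genes was not counted. The genes called were all at least 100 kb long. They were 11 of the 19 tested receptor genes of that length, where 10.8% of the 2278 tested genes of that length had more peaks. The median over those 2278 genes was 0.04. The genes called were 240 to 922 kb long, so this cut does not match their length. In Ezh2 against GFP, none of the 28 had more peaks, where 1.5% of all genes did and 2 of the 28 passed an unadjusted p of 0.05. In that comparison 1 gene had fewer, where 1.14% of all genes did. The median over the 28 genes was -0.09, and turned to 0.02 when peak numbers were not scaled to list length, which shifted the median of all genes from -0.03 to 0.08. Both comparisons share the GFP lists.

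**Figure D2:**
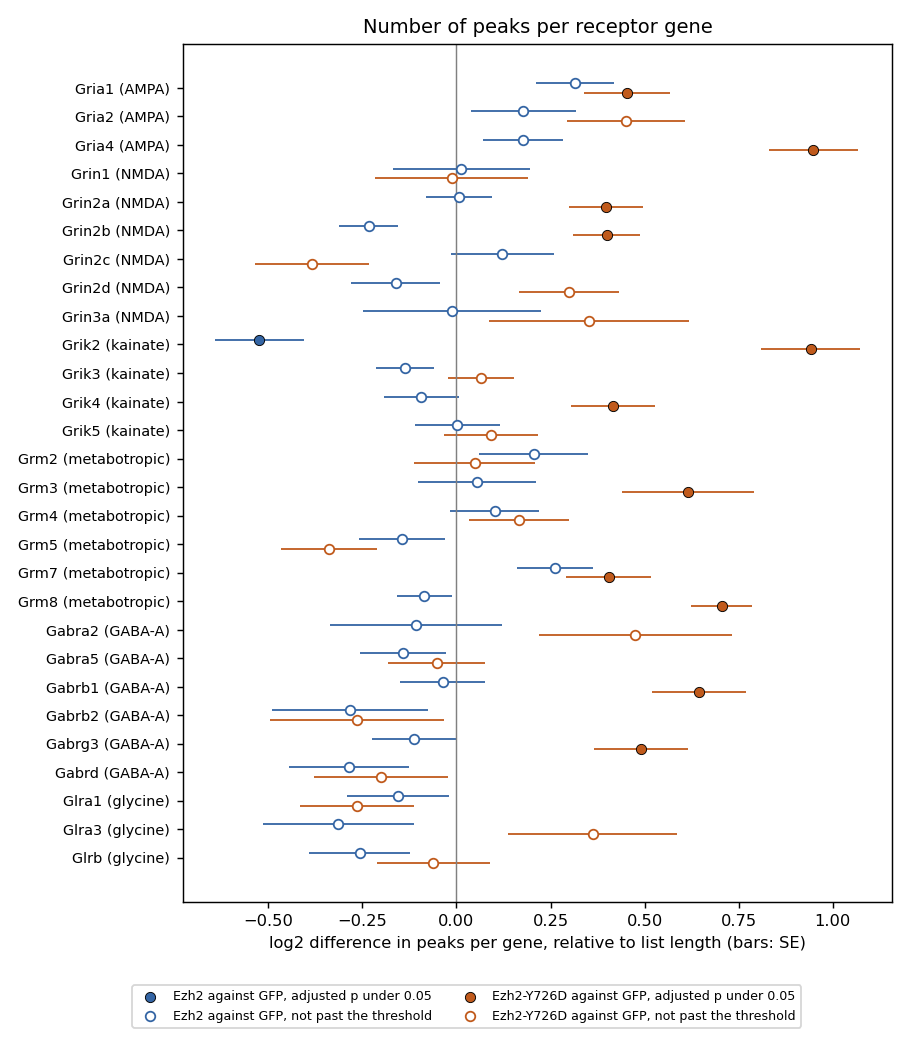
Log2 difference in the number of peaks per gene, relative to list length, for the 28 receptor genes tested, with SE bars; blue is Ezh2 against GFP, orange is Ezh2-Y726D against GFP, and filled points passed an adjusted p of 0.05 in limma. The filled orange points are 11 genes between 0.40 and 0.95, and the filled blue point is Grik2 at -0.52.

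Among AMPA receptor genes, Gria4, the GluA4 subunit of fast-gating receptors (chr9:4417893-4796234), rose most. It held 11, 11 and 12 peaks in the GFP lists, 14, 12 and 16 in the Ezh2 lists and 24 and 23 in the Ezh2-Y726D lists. The Ezh2-Y726D lists stood clear of the 6 others (1.93-fold over GFP, log2 difference 0.95 ± 0.12 SE, adjusted p = 0.000269). Gria1, the GluA1 subunit (chr11:57011571-57330244), held 18, 19 and 23 peaks with GFP, 24, 26 and 31 with Ezh2 and 32 and 26 with Ezh2-Y726D. Both Ezh2 forms were above GFP at Gria1 in every list, which passed the test for Ezh2-Y726D (0.45 ± 0.11, adjusted p = 0.0204) and not for Ezh2 (0.32 ± 0.10, adjusted p = 0.119). With unscaled peak numbers or lists cut to equal length, the Ezh2-Y726D call at Gria1 was lost (adjusted p = 0.133 and 0.114 in limma). Gria2, whose edited subunit makes AMPA receptors impermeable to calcium, held 6 to 10, 8 to 11 and 11 peaks, and its difference of 0.45 ± 0.16 did not pass (adjusted p = 0.0778). The Gria1 call was lost without GFP replicate 1 or 3 or Ezh2-Y726D replicate 1, with a difference of 0.28 to 0.62 over single lists left out, while Gria4 passed throughout.

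For NMDA receptors, the genes of 2 GluN2 subunits rose with Ezh2-Y726D. Grin2a (GluN2A, chr16:9567901-9996083) held 21, 18 and 25 peaks with GFP, 23, 21 and 25 with Ezh2 and 30 and 29 with Ezh2-Y726D, a log2 difference of 0.40 ± 0.10 (adjusted p = 0.0187). Grin2b (GluN2B, chr6:135713221-136173615) held 30, 28 and 35 peaks, then 26, 31 and 28, then 43 and 43, a difference of 0.40 ± 0.09 (adjusted p = 0.00988). Both stood clear of the GFP lists. Neither call passed with unscaled peak numbers, and that of Grin2b was also lost with lists cut to equal length. Grin2c (GluN2C, chr11:115249169-115267297) went the other way, with 8, 6 and 9 peaks with GFP, 10, 8 and 9 with Ezh2 and 6 and 6 with Ezh2-Y726D. Its difference from GFP of -0.38 ± 0.15 did not pass (adjusted p = 0.12), and Ezh2 held more than Ezh2-Y726D (0.51 ± 0.15, adjusted p = 0.0334). Grin2d (GluN2D, chr7:45831883-45871194) held 7 to 9 peaks with GFP, 7 or 8 with Ezh2 and 10 in both Ezh2-Y726D lists, and only Ezh2 against Ezh2-Y726D passed (-0.46 ± 0.13, adjusted p = 0.0272). Grin1, the obligatory GluN1 subunit, held 3 or 4 peaks in every list, and Grin3a, the GluN3A subunit that lowers calcium entry, held 4 to 8. The Grin2a call was lost without GFP replicate 2 or either Ezh2-Y726D list (0.33 to 0.44 over single lists left out), the Grin2b call without Ezh2-Y726D replicate 1 (0.38 to 0.42), and those of Grin2c and Grin2d without Ezh2 replicate 1 or 3 or either Ezh2-Y726D list, and for Grin2c also without GFP replicate 3.

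Among kainate receptor genes, Grik2 differed from GFP in opposite directions with the 2 forms of Ezh2. Grik2 (chr10:49093680-49790161) held 10, 10 and 11 peaks with GFP, 7, 7 and 9 with Ezh2 and 19 and 24 with Ezh2-Y726D. The 3 groups did not overlap. Relative to GFP, Grik2 fell by 0.52 on the log2 scale with Ezh2 (SE 0.12, adjusted p = 0.0361) and rose by 0.94 with Ezh2-Y726D (SE 0.13, adjusted p = 0.000538). The direct difference, Ezh2 against Ezh2-Y726D, was -1.47 ± 0.13 (adjusted p = 1.2e-05), the largest among the 28 genes. The Ezh2 call was fragile: it was lost without any 1 of the 3 GFP lists and without Ezh2 replicate 1 or 2 (adjusted p of 0.022 to 0.196 over all alternatives), while the rise with Ezh2-Y726D passed in all 17 alternatives. Grik4 (GluK4, chr9:42518182-42945000), a subunit that joins GluK1 to GluK3 in heteromers, held 34, 35 and 41 peaks, then 30, 43 and 39, then 51 and 52 (0.42 ± 0.11 for Ezh2-Y726D against GFP, adjusted p = 0.0267, lost without any 1 of the GFP or Ezh2-Y726D lists at 0.39 to 0.43). This Grik4 call was also lost with unscaled peak numbers, without the filter on low values and with the replicate block by peak names. Grik3 held 29 to 36 and Grik5 15 to 19 peaks over all lists, and neither passed in any comparison.

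Of the metabotropic receptors, the group II receptor Grm3 and the group III receptors Grm7 and Grm8 rose with Ezh2-Y726D. Grm8 (chr6:27275121-28135146) held 32, 28 and 38 peaks with GFP, 31, 32 and 36 with Ezh2 and 53 and 59 with Ezh2-Y726D. Its Ezh2-Y726D lists were above all 6 others (1.63-fold, 0.70 ± 0.08, adjusted p = 0.000167). Grm3 (chr5:9485236-9725352) held 6, 6 and 7 peaks, then 6, 6 and 10, then 11 and 10 (0.62 ± 0.18, adjusted p = 0.0352). Grm7 (chr6:110645349-111567230), at 922 kb the longest member, held 22, 22 and 27 peaks with GFP, 29, 26 and 38 with Ezh2 and 33 and 33 with Ezh2-Y726D (0.40 ± 0.11, adjusted p = 0.0315). Grm5, the group I receptor that couples to phospholipase C, held 13 or 14 peaks with GFP, 12 to 14 with Ezh2 and 11 with Ezh2-Y726D, a difference of -0.34 ± 0.13 that did not pass (adjusted p = 0.105). Grm2 and Grm4 held 3 to 5 and 13 to 18 peaks, without a call. The calls of Grm3 and Grm7 were lost without any 1 of the GFP or Ezh2-Y726D lists (0.53 to 0.70 and 0.38 to 0.43), and that of Grm8 in no case. Both were also lost with unscaled peak numbers, with −log10 q of at least 5, without the filter on low values and with the replicate block by peak names. The Grm3 call was lost as well with lists of equal length and with the gene body only.

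At GABA-A receptors, Gabrb1 and Gabrg3, which code for the beta1 and gamma3 subunits, rose with Ezh2-Y726D. Gabrb1 (chr5:71657921-72149572) held 12, 11 and 15 peaks with GFP, 11, 14 and 15 with Ezh2 and 20 and 22 with Ezh2-Y726D (1.56-fold, 0.64 ± 0.13, adjusted p = 0.00463). Gabrg3 (chr7:56716463-57387215) held 21, 18 and 25, then 17, 23 and 24, then 32 and 31 (0.49 ± 0.12, adjusted p = 0.0206). In both genes the Ezh2-Y726D lists exceeded all others. Both calls were lost with unscaled peak numbers, and that of Gabrb1 also with lists cut to equal length (adjusted p in limma of up to 0.134). The Gabrg3 call was lost without GFP replicate 2 or 3 or either Ezh2-Y726D list (0.42 to 0.54). Gabra5, the subunit of extrasynaptic receptors, held 12 to 14 peaks in every list, and Gabra2, Gabrb2 and Gabrd held 2 to 5, 6 to 13 and 4 to 6, all without a call. Glycine receptor genes had no call either in limma, and 0 of the 3 passed an unadjusted p of 0.05 against GFP: Glra1 held 9 to 13, Glra3 3 to 7 and Glrb, the beta subunit that anchors the receptor at synapses, 5 to 7 peaks.

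Set directly against each other, Ezh2 held more peaks than Ezh2-Y726D at 1 of the 28 genes, Grin2c, where 13.6% of all genes tested did. It held fewer at 10, where 4.78% of all genes did. Besides Gria4 (-0.77 ± 0.12), Grin2d and Grik2, these were Grin2a (-0.39 ± 0.10), Grin2b (-0.63 ± 0.09), Grik4 (-0.51 ± 0.11), Grm3 (-0.56 ± 0.18), Grm8 (-0.79 ± 0.08), Gabrb1 (-0.68 ± 0.13) and Gabrg3 (-0.60 ± 0.12), with adjusted p-values of 1.2e-05 to 0.0405 over the 10. The median over the members was -0.24, against 0.04 over all genes. Gria4, Grik2 and Grm8 passed in all 17 alternatives in both comparisons with Ezh2-Y726D. Leaving out any 1 list of the 2 groups took the 11 genes called in Ezh2-Y726D against GFP to 7 without GFP replicate 1, 6 without GFP replicate 2, 7 without GFP replicate 3, 4 without Ezh2-Y726D replicate 1 and 6 without Ezh2-Y726D replicate 2, all with more peaks. The 11 of Ezh2 against Ezh2-Y726D went to 7 without Ezh2-Y726D replicate 1, and the Grm3 call was also lost without GFP replicate 3 or Ezh2 replicate 1 or 2 and that of Grin2a without Ezh2 replicate 2. Of the 10 genes with fewer peaks, 9 were at least 100 kb long. These were 9 of the 19 tested receptor genes of that length, where 15.1% of the 2278 tested genes of that length had fewer.

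Where along the genes the peaks were gained was asked next, by presence. A region was called gained when every list of the first group and no list of the second had a peak in it, and lost in the reverse case, with no test, since 3 lists against 3 cannot give an exact p below 0.1. With Ezh2-Y726D, 62 of the 707 receptor regions (8.77%) were gained against GFP, where 4.77% of all regions and 4.09% of regions at protein-coding genes were, and 11 (1.56%) were lost, where 4.72% of all regions were. Of the 62, 59 were inside genes, as were 86.6% of all 707 regions, 3 were in the flanks and 0 lay at a start or gene end. That 0 was largely set by the rule. Of the regions at a start, 24 of 28 had a peak in all 8 lists, as did 9 of 10 at a gene end, and could not be gained. They fell in 18 of the genes: 9 in Grm8, 8 in Grik4, 7 in Grin2b, 6 each in Gria1, Gria4 and Grik2, and 4 in Gabrb1 led. They were mostly weak, with a median percentile of 28 (28.8 over all gained regions of the genome), and 10 of the 62 lay above percentile 50. By class, 12 were at AMPA, 10 at NMDA, 16 at kainate, 16 at metabotropic, 7 at GABA-A and 1 at glycine receptor genes.

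The strongest regions present in both Ezh2-Y726D lists and none of the 6 others lay inside Grm8 (chr6:27601332-27601846), at percentiles 63.4 and 71.1, and inside Gabrg1, the gamma1 subunit of GABA-A receptors (chr5:70801909-70802248), at 68.1 and 58.7. Inside Grik2, 21.0 kb from its start (chr10:49767520-49767985), such a region stood at 55.4 and 51.4, and inside Gabrb1 (chr5:71726650-71727083) at 57.5 and 51.4. In all, 32 receptor regions (4.53%) were found in the pair of Ezh2-Y726D lists and nowhere else, as were 2.39% of all regions. Other gained regions were shared with Ezh2. A region inside Grm5 (chr7:87793773-87794372) had no peak in any GFP list, stood at percentiles 44.4, 51.5 and 50.6 with Ezh2 and at 57.5 and 67.5 with Ezh2-Y726D. Inside Grm7 (chr6:111413555-111413906) the percentiles were 33.5, 25.2 and 30.2 with Ezh2 and 71.1 and 55.2 with Ezh2-Y726D, again with no GFP peak. Others with both forms were Grm7 region 4 (chr6:110668287-110668810), with no peak with GFP, 49.2, 12.9 and 54.5 with Ezh2 and 61.4 and 51.4 with Ezh2-Y726D, and Gria4 region 16 (chr9:4639158-4639952), with no peak with GFP, 21.0, 42.5 and 41.5 with Ezh2 and 45.9 and 55.2 with Ezh2-Y726D. Grin2b region 41 (chr6:136046105-136046472) had no peak with GFP, 21.0 in 1 of the 3 Ezh2 lists and 37.0 and 72.4 with Ezh2-Y726D, and Grm3 region 1, in the flank (chr5:9483252-9483845), with no peak with GFP, 4.35 and 46.3 in 2 of the 3 Ezh2 lists and 43.0 and 58.7 with Ezh2-Y726D. In all of these the GFP lists had nothing. The strongest of the 11 lost regions lay inside Grin2b (chr6:136108349-136108758), at percentiles 57.5, 51.7 and 61.8 with GFP and 44.4, 55.5 and 46.3 with Ezh2. It was followed by Grik4 region 37 (chr9:42755843-42756534), at 53.6, 41.4 and 43.9 with GFP, 53.5, 70.4 and 46.3 with Ezh2 and no peak with Ezh2-Y726D.

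**Figure D3:**
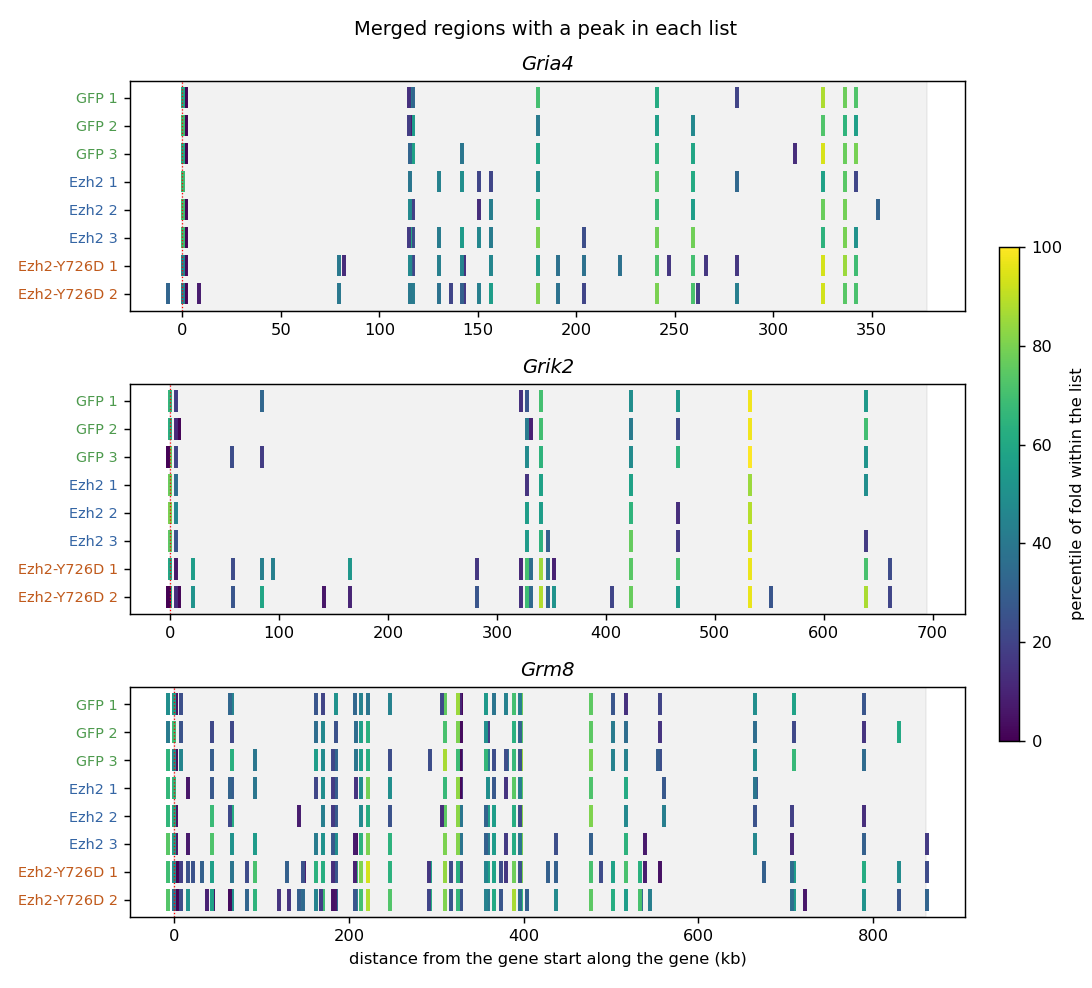
Merged regions with a peak in each of the 8 lists along Gria4, Grik2 and Grm8, drawn at their distance in kb from the first annotated gene start (dotted line), with the gene shaded and the colour giving the percentile of fold within the list. Regions seen in every list form vertical columns, and the 2 Ezh2-Y726D rows hold further regions inside the genes, of mostly low percentile.

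Ezh2 against GFP gave 10 receptor regions gained (1.41%, where 2.72% of all regions were) and 12 lost (1.7%, where 1.68% of all regions were). The rule was stricter here, since 3 Ezh2 lists had to agree and only 2 Ezh2-Y726D lists did above. Without Ezh2 replicate 1, 2 or 3, the regions gained or lost numbered 33, 40 and 31. The 10 gained regions included 2 in Gria4 and 2 in Grm7, and the 12 lost ones included 4 in Grm8 and 3 in Grin2b. The strongest lost region, inside Grm8 (chr6:27425462-27426620), stood at percentiles 57.5, 21.7 and 67.1 with GFP and at 54.5 and 53.3 with Ezh2-Y726D. Of the 12, 9 were thus present in both Ezh2-Y726D lists, among them one in Gabra5 (chr7:57412746-57413305) at 44.3, 21.7 and 49.2 with GFP and 77.3 and 56.8 with Ezh2-Y726D. Grin2b gave the pair of regions 23 (chr6:135915953-135916636), at 47.3, 23.7 and 49.9 with GFP, no peak with Ezh2 and 41.3 and 49.0 with Ezh2-Y726D, and 43 (chr6:136091264-136091668), at 20.0, 35.4 and 51.9 with GFP, no peak with Ezh2 and 57.5 and 76.7 with Ezh2-Y726D. Grm8 region 18 (chr6:27633123-27633630) stood at 26.5, 41.4 and 43.9 with GFP, no peak with Ezh2 and 57.5 and 61.9 with Ezh2-Y726D. These regions of Grm8, Grin2b and Gabra5 are single cases, since the share of receptor regions lost was near that of all regions. Grik4 region 53 (chr9:42868316-42869025) was at 20.0, 39.0 and 57.9 with GFP, no peak with Ezh2 and 60.5 in 1 of the 2 Ezh2-Y726D lists, and a region gained with Ezh2 alone, Grik3 region 15 (chr4:125557874-125558264), had no peak with GFP, 55.0, 10.0 and 37.8 with Ezh2 and no peak with Ezh2-Y726D. Only 1 region (0.141% of the 707) was lost in both comparisons with GFP. For it, and for the 9 regions held by both Ezh2-Y726D lists, the share over all regions was not counted. Ezh2 against Ezh2-Y726D gave 13 regions gained, where 8.96% of all regions were, and 61 lost, where 6.14% of all regions were. Of the 61, 10 lay in Grm8 and 8 in Grik2. Among those not yet given were Grin3a region 3 (chr4:49723338-49723788), at 44.3 and 46.7 in 2 of the 3 GFP lists, no peak with Ezh2 and 65.0 and 55.2 with Ezh2-Y726D, and Grm8 region 39 (chr6:27842063-27842525), at 23.4 in 1 of the 3 GFP lists, no peak with Ezh2 and 57.5 and 61.9 with Ezh2-Y726D. Grin2a region 3, in the flank (chr16:9564174-9564556), stood at 26.5, 21.7 and 4.9 with GFP, no peak with Ezh2 and 68.1 and 47.3 with Ezh2-Y726D. In the other direction, Grik4 region 49 (chr9:42838060-42838935) stood at 13.8 and 51.9 in 2 of the 3 GFP lists, 52.4, 73.5 and 48.6 with Ezh2 and no peak with Ezh2-Y726D. Without Ezh2-Y726D replicate 1 or 2, which leaves 1 list in that group, the changed regions numbered 143 and 135 against GFP and 145 and 131 against Ezh2, and for Ezh2 against GFP they numbered 37 without GFP replicate 3 and 40 without Ezh2 replicate 2.

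Ranks were then compared at gene starts and inside genes. Rank differences are in units of normal scores of the within-list rank of fold, for regions with a peak in all 8 lists, and were tested with limma over 69493 such regions. At the 33 receptor regions at a start or gene end, the median difference for Ezh2-Y726D against GFP was -0.25, with 27 negative and 6 positive values, against a median of -0.10 over 13187 start regions of the genome. The 166 regions inside the genes had a median of 0.11, against 0.02 over regions away from starts. With Ezh2 against GFP the median inside the genes was 0.12, against 0.03, with 97 of the 166 values positive, as were 98 with Ezh2-Y726D against GFP. The shares of negative and positive values over all regions of the genome, at starts or away from them, were not counted. For Ezh2 against GFP the start regions had a median of -0.02 and no call in limma (1 higher and 1 lower at an unadjusted p under 0.05), where 0.455% of start regions in the genome were higher and 0.728% lower. Of the 33, 1 was called lower with Ezh2-Y726D than with GFP and 2 were called higher with Ezh2 than with Ezh2-Y726D. These were the starts of Grin2d and Gria4, and over all start regions of the genome 1.69% were lower in the former comparison and 3.28% higher in the latter.

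**Figure D4:**
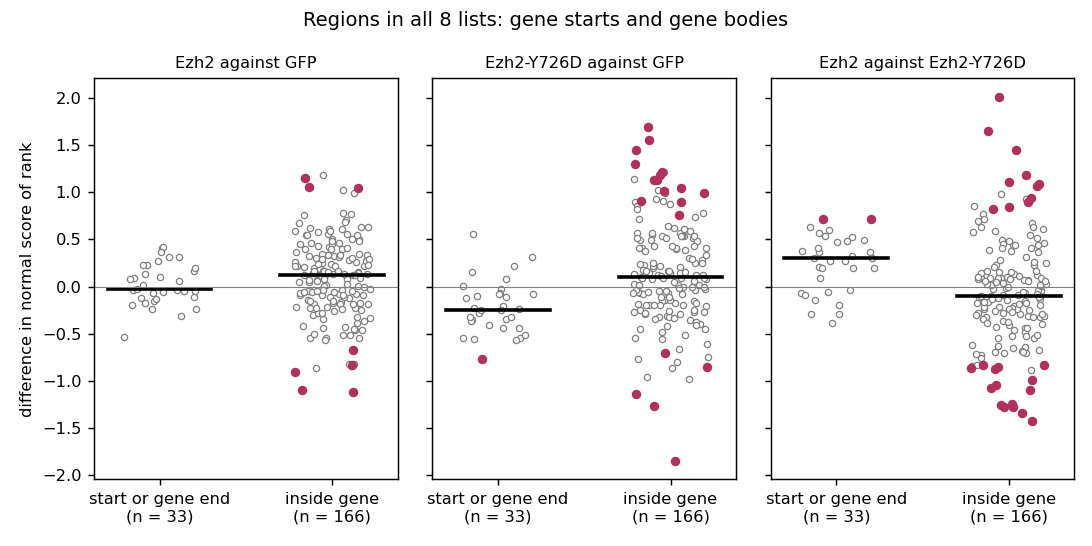
Differences in rank (normal scores) for receptor gene regions in all 8 lists, split into 33 regions at a start or gene end and 166 inside genes, in 3 comparisons; each point is 1 region, filled points passed an adjusted p of 0.05 in limma, and black lines are medians. For Ezh2-Y726D against GFP the start regions lie mostly below 0 (median -0.25, against -0.10 over all start regions of the genome). Most called regions inside genes lie above 0.

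The region at the Grin2d start (chr7:45865900-45866780) stood at percentiles 71.6, 72.9 and 63.9 with GFP, 73.3, 66.9 and 65.4 with Ezh2 and 45.6 and 45.5 with Ezh2-Y726D. It was lower with Ezh2-Y726D than with GFP (-0.77 ± 0.21, adjusted p = 0.0487) and than with Ezh2 (0.71 ± 0.21 for Ezh2 against Ezh2-Y726D, adjusted p = 0.0462). The region at the Gria4 start (chr9:4795067-4796627) stood at 59.4, 68.8 and 60.8, then 68.4, 69.3 and 68.4, then 46.7 and 44.9. Here Ezh2 was above Ezh2-Y726D (0.71 ± 0.19, adjusted p = 0.0332), and the difference from GFP of -0.54 ± 0.19 did not pass (adjusted p = 0.107). At the Grik2 start (chr10:49788162-49789420), whose gene also gained peaks, the percentiles were 65.6, 62.7 and 75.1, then 77.0, 79.8 and 75.0, then 59.0 and 63.2, with no call. The Grin2d and Gria4 calls were near the threshold: each was lost without either Ezh2-Y726D list and without any 1 Ezh2 list, and that of Grin2d also without GFP replicate 1 in both comparisons and GFP replicate 2 against GFP (adjusted p up to 0.204 for Grin2d and 0.426 for Gria4 over the alternatives). Gria4 and Grik2 thus had more peaks inside the gene with Ezh2-Y726D while the rank of their starts lay within or below the range of the GFP lists.

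RefSeq promoter sequences (GRCm38.p6, 250 bases before to 50 after each annotated start) were found for 23 of the 31 genes, with 29 starts. The sequences at hand held no entry for Gria1, Grin2a, Grin2b, Grin3a, Grm4, Grm5, Gabrd and Glra1. The sequences below are those of the 3 starts just described, shown 5′ to 3′ on the minus strand, which is the coding strand of all 3 genes, with each CpG, the dinucleotide that is methylated in vertebrate DNA, in capitals. Gria4 is at chr9:4796185-4796484, Grin2d at chr7:45866632-45866931 and Grik2 at chr10:49788705-49789004.
Gria4: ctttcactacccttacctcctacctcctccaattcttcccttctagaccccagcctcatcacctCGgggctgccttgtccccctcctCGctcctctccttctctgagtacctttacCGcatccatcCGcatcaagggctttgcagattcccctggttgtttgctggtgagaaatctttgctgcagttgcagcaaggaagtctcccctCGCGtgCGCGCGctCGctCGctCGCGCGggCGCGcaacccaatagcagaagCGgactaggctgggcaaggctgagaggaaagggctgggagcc
Grin2d: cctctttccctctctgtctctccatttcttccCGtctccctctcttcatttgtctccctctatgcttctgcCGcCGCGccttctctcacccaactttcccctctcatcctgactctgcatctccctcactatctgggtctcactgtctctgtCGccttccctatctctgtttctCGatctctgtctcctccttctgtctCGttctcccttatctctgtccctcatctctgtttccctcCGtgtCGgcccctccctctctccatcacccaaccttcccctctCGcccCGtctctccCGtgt
Grik2: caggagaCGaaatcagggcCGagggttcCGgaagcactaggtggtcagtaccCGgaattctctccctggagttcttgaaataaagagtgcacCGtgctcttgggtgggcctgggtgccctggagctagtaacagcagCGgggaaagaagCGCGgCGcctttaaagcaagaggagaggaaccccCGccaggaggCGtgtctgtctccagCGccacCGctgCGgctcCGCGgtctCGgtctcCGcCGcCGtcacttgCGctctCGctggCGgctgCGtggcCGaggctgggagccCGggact

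These windows hold 17, 12 and 26 CpGs, or 0.662, 0.848 and 0.836 of the number expected from their C and G content. The 29 receptor starts had a median observed over expected CpG of 0.541 and a median GC content of 61.0%, against 0.384 and 52.7% over the 32851 promoters of the table. The 3 windows had 59.7%, 56.0% and 64.7% GC. Both strands were searched for 4 motifs. The GC box GGGCGG was present at 16 of the 29 starts (55.2%, against 35.7% of all promoters) and at none of the 3 printed. The E-box CANNTG was present at 14 (48.3%, against 72.3%), including 1 in each of the 3 printed windows. The AP-1 motif TGANTCA occurred at 1 start, of Grm8 (3.45%, against 7.81%), and the cyclic AMP response element TGACGTCA at 0 (against 1.79%). These matches describe the letters in the windows only.

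Over all 222 receptor regions present in every list, 15 ranked higher with Ezh2-Y726D than with GFP, where 3.55% of all regions tested did, and 6 ranked lower, where 4.65% of all regions did. The 15 made up 6.76% of the 222 and the 6 made up 2.7%, and the medians were 0.00 over the members and -0.01 over all regions. For Ezh2 against GFP, 6 ranked higher, where 1.59% of all regions did, and 6 lower, where 2.84% of all regions did, each 2.7% of the 222. For Ezh2 against Ezh2-Y726D there were 16 higher, where 7.0% of all regions were, and 16 lower, where 6.96% of all regions were, each 7.21%, so these shares were close to the background. Leaving out 1 list took the 21 regions called for Ezh2-Y726D against GFP to 11 without GFP replicate 1, 10 without GFP replicate 2, 4 without Ezh2-Y726D replicate 1 and 3 without Ezh2-Y726D replicate 2. The 12 for Ezh2 against GFP went to 4 without GFP replicate 1, 3 without GFP replicate 2, 5 without GFP replicate 3, 7 without Ezh2 replicate 1, 5 without Ezh2 replicate 3 and 7 without either Ezh2-Y726D list. The 32 for Ezh2 against Ezh2-Y726D went to 5 without Ezh2-Y726D replicate 1 and 12 without Ezh2-Y726D replicate 2.

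Inside single genes, regions moved in both directions. The largest difference was at Grik4 region 31, counted along the chromosome within the gene's window (chr9:42731706-42732336, about 212 kb into the gene). It stood at percentiles 76.5, 73.6 and 70.4 with GFP, 72.9, 77.7 and 83.0 with Ezh2 and 11.3 and 14.0 with Ezh2-Y726D. Its fall with Ezh2-Y726D was -1.85 ± 0.19 against GFP (adjusted p = 0.0022), and it passed in all 16 alternatives. The next region along, Grik4 region 32 (chr9:42732545-42733275), less than 1 kb away, moved with Ezh2 instead, from 46.8, 37.5 and 57.8 with GFP to 12.8, 27.8 and 19.8 (-0.84 ± 0.18, adjusted p = 0.0319, up to 0.105 over the alternatives, lost without any GFP list and without Ezh2 replicate 1 or 3), with 51.9 and 59.5 for Ezh2-Y726D. In Ezh2 against Ezh2-Y726D the adjacent regions differed in opposite directions (2.01 ± 0.19, adjusted p = 0.000652, for region 31 and -1.04 ± 0.20, adjusted p = 0.00895, for region 32).

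Some regions ranked higher with both forms than with GFP. Grm7 region 33 (chr6:111324475-111325354) stood at 49.1, 51.7 and 69.5 with GFP, 89.8, 85.1 and 87.2 with Ezh2 and 92.9 and 93.8 with Ezh2-Y726D (1.15 ± 0.18, adjusted p = 0.0117, and 1.55 ± 0.20, adjusted p = 0.00356). Grin2a region 8 (chr16:9647947-9648551) stood at 61.2, 41.4 and 48.0, then 82.1, 80.5 and 81.8, then 85.0 and 88.1 (1.06 ± 0.19, adjusted p = 0.0173, and 1.29 ± 0.21, adjusted p = 0.00778). Grm3 region 15, in the flank upstream of the gene (chr5:9732793-9733476), stood at 20.0, 21.7 and 39.4, then 57.4, 55.5 and 72.2, then 68.1 and 72.4 (1.00 ± 0.19, adjusted p = 0.0206, and 1.26 ± 0.21, adjusted p = 0.00868). In all 3 regions every list of either form was above every GFP list. These pairs of differences share the GFP lists, so they are not independent of each other. Grm7 region 33 passed in both in all 15 alternatives that it entered, while the other calls were lost without single lists. For Ezh2 against GFP, these were Grin2a region 8 without GFP replicate 2 or 3 and Grm3 region 15 without GFP replicate 1 or 2 or Ezh2 replicate 3 (adjusted p up to 0.0659 and 0.0736). For Ezh2-Y726D against GFP, they were Grin2a region 8 without Ezh2-Y726D replicate 2 and Grm3 region 15 without either Ezh2-Y726D list.

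Other regions set the 2 forms apart. With Ezh2, Grin2a region 33 (chr16:10005366-10006147), at the start of a neighbouring gene within 10 kb of Grin2a, fell from 91.7, 97.7 and 88.3 with GFP to 60.9, 62.2 and 69.8 (-1.39 ± 0.24, adjusted p = 0.0154) and stood at 94.9 and 95.6 with Ezh2-Y726D. Grik3 region 30 (chr4:125628921-125630188) did likewise, from 78.4, 77.6 and 77.1 to 33.5, 59.0 and 41.5, with 78.2 and 79.4 for Ezh2-Y726D (-1.10 ± 0.20, adjusted p = 0.0181). The strongest kainate region, Grik2 region 4, went from 97.8, 97.9 and 99.7 to 85.1, 88.7 and 94.0 (-1.12 ± 0.22, adjusted p = 0.0258), with 97.0 and 96.8 for Ezh2-Y726D. In all 3, every Ezh2 list was below every other list, and the first and the second also passed in Ezh2 against Ezh2-Y726D (-1.54 ± 0.27, adjusted p = 0.00553, and -1.10 ± 0.22, adjusted p = 0.0106). The Ezh2 against GFP call of Grin2a region 33 passed in all 15 alternatives that it entered. That of Grik3 region 30 was lost without GFP replicate 1 or 2 or Ezh2 replicate 1 or 3, and that of Grik2 region 4 without GFP replicate 2 or 3 or Ezh2 replicate 1 or 2 (adjusted p up to 0.0639 and 0.0745). Inside Grin1, region 3 (chr2:25304333-25305887) stood at 38.9, 51.7 and 28.9 with GFP, 57.4, 83.7 and 73.2 with Ezh2 and 9.23 and 26.6 with Ezh2-Y726D. It passed only between the 2 forms (1.65 ± 0.32, adjusted p = 0.00941, lost without Ezh2-Y726D replicate 1).

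Also called for Ezh2 against GFP were Grin2b region 1 (chr6:135734032-135735136), at 95.4, 94.6 and 98.4 with GFP, 83.7, 80.5 and 90.3 with Ezh2 and 97.3 and 94.8 with Ezh2-Y726D (-0.91 ± 0.21, adjusted p = 0.0391), and Grm8 region 33 (chr6:27807138-27807720), at 1.46, 2.77 and 13.6 with GFP, 14.1, 39.3 and 38.4 with Ezh2 and 19.4 and 24.9 with Ezh2-Y726D (1.04 ± 0.24, adjusted p = 0.0405). Grik3 region 46, in the flank (chr4:125718427-125719364), stood at 74.4, 79.8 and 75.3 with GFP, 91.6, 89.7 and 91.9 with Ezh2 and 81.3 and 85.3 with Ezh2-Y726D (0.72 ± 0.16, adjusted p = 0.0363). These 3 calls were each lost in 9 to 11 alternatives, among them most of the single lists left out. The smallest differences among the 12 called were those of Gria1 region 18, inside the gene and lower (-0.67 ± 0.16, adjusted p = 0.0477), and Grin2d region 2, in the flank and higher (0.71 ± 0.17, adjusted p = 0.0483). Ezh2 ranked below Ezh2-Y726D at Grin2b region 42 (chr6:136079841-136080677), at 20.0, 9.25 and 55.4 with GFP, 10.0, 31.3 and 23.8 with Ezh2 and 57.5 and 78.6 with Ezh2-Y726D (-1.43 ± 0.36, adjusted p = 0.0273), and at Grin2b region 7 (chr6:135766115-135766839), at 26.5, 51.7 and 43.9 with GFP, 39.2, 31.3 and 41.5 with Ezh2 and 79.8 and 74.6 with Ezh2-Y726D (-1.25 ± 0.24, adjusted p = 0.00823). Grik3 region 41 (chr4:125687934-125688698) stood at 57.5, 46.7 and 75.9 with GFP, 49.2, 65.2 and 50.6 with Ezh2 and 91.9 and 86.3 with Ezh2-Y726D (-1.34 ± 0.26, adjusted p = 0.0099). In these 3 regions both Ezh2-Y726D lists were above all others. Grm3 region 9 (chr5:9627021-9627681) stood at 44.3, 21.7 and 58.7 with GFP, 27.3, 31.3 and 46.3 with Ezh2 and 80.0 and 71.9 with Ezh2-Y726D (-1.27 ± 0.26, adjusted p = 0.0118). Gria4 region 4 (chr9:4470632-4471491) was at 87.9, 72.3 and 93.8 with GFP, 57.4, 77.0 and 64.4 with Ezh2 and 93.5 and 93.2 with Ezh2-Y726D (-1.27 ± 0.30, adjusted p = 0.0197). Grik5 region 14, in the gene of the heteromer subunit GluK5 (chr7:25063348-25064188), was at 33.0, 41.4 and 67.1 with GFP, 21.0, 51.5 and 30.2 with Ezh2 and 65.7 and 82.8 with Ezh2-Y726D (-1.25 ± 0.32, adjusted p = 0.0308). Without Ezh2-Y726D replicate 1 these 6 calls were all lost, with adjusted p-values of up to 0.205 over the alternatives.

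With Ezh2-Y726D, GABA-A genes contributed Gabra5 region 14 (chr7:57529895-57530736), from 13.8, 28.6 and 55.4 with GFP to 79.6 and 88.6 (1.69 ± 0.37, adjusted p = 0.0228), and Gabrg3 region 2 (chr7:56730465-56731123), from 38.9, 59.9 and 61.8 to 84.3 and 88.6 (1.19 ± 0.23, adjusted p = 0.0149). Grm8 region 43 (chr6:27912993-27913793) rose from 38.9, 63.5 and 61.8 to 93.4 and 88.6 (1.45 ± 0.28, adjusted p = 0.0148). Ranks in these 3 regions were higher than in any GFP list. Grin2a region 21 (chr16:9866157-9867014) rose from 70.1, 72.3 and 73.9 to 93.5 and 96.2 (1.22 ± 0.20, adjusted p = 0.00836). Lower ranks came from Grm7 region 43 (chr6:111448912-111449863), at 85.8, 73.7 and 76.3 with GFP and 32.1 and 49.8 with Ezh2-Y726D (-1.26 ± 0.33, adjusted p = 0.0455), and from Grm3 region 10 (chr5:9661764-9662605), at 67.4, 87.0 and 69.5 and then 37.0 and 42.8 (-1.14 ± 0.26, adjusted p = 0.028). A second Gabrg3 region, 17, also ranked lower (-0.85 ± 0.20, adjusted p = 0.0281). Grm3 region 10 ranked higher with Ezh2 than with Ezh2-Y726D as well (1.45 ± 0.26, adjusted p = 0.0069 in limma), a call lost without Ezh2-Y726D replicate 1. None of the regions in this paragraph was called for Ezh2 against GFP, which does not show equal ranks. Their percentiles in the Ezh2 lists are not given here, so their changes cannot be read as particular to Ezh2-Y726D. Without 1 of the Ezh2-Y726D lists, the calls of Gabra5 region 14, Grm8 region 43, Gabrg3 region 2, Grm7 region 43 and Grm3 region 10 were lost, as was that of Grin2a region 21 without replicate 2. Those of Gabra5 region 14 and Grm7 region 43 were also lost without GFP replicate 1 or 2, and that of Grm7 region 43 without GFP replicate 3 or Ezh2 replicate 1, with adjusted p-values of up to 0.272. Glycine receptor genes had 12 regions in all lists and no call against GFP in limma, with 1 and 4 of the 12 at an unadjusted p under 0.05 for Ezh2 and Ezh2-Y726D.

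**Figure D5:**
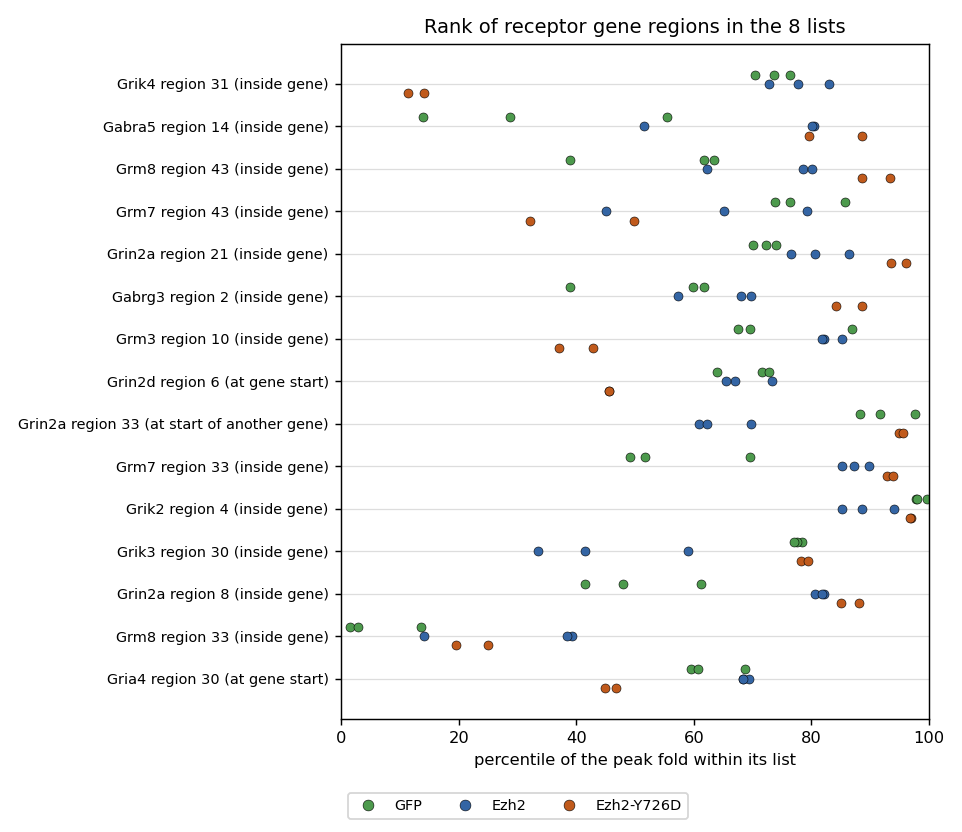
Percentile of peak fold within the list for the leading called receptor gene regions and for the Gria4 and Grin2d starts, 1 row per region and 1 point per list; green is GFP, blue Ezh2 and orange Ezh2-Y726D. The Ezh2-Y726D points of Grik4 region 31 lie at 11.3 and 14.0 while all others lie above 70, and in Grm7 region 33 both blue and orange points lie to the right of the green.

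Genes that work with these receptors, as auxiliary subunits, scaffolds or in the synthesis and transport of the transmitters, were examined in the same way. Of 41 listed partner genes, 40 were tested for peak number. In Ezh2-Y726D against GFP, 1 of the 40 had more peaks, where 3.0% of all genes did. This was Grip1, a scaffold that binds AMPA receptors, with 57, 59 and 73 peaks in the GFP lists, 79, 69 and 82 in the Ezh2 lists and 81 and 91 in the Ezh2-Y726D lists (0.38 ± 0.07, adjusted p = 0.00387). None had fewer, where 9.9% of all genes did, with 1 at an unadjusted p under 0.05, and the median over the 40 was 0.00. In Ezh2 against GFP none was called in limma, with 3 more and 5 fewer at an unadjusted p under 0.05. In Ezh2 against Ezh2-Y726D, 4 of the 40 had fewer, where 4.78% of all genes did: the AMPA receptor auxiliary subunits Cacng3 (-0.69 ± 0.12) and Shisa9 (-0.57 ± 0.16), the scaffold Dlg2 (-0.13 ± 0.04) and Gphn, which codes for gephyrin (-0.68 ± 0.21), with adjusted p-values of 0.00166 to 0.0447. The 14 genes of transmitter synthesis and transport and the 2 GABA-B receptor genes had no call in any comparison in limma. At an unadjusted p under 0.05, 3 of the 14 transport and synthesis genes passed in Ezh2 against GFP, 0 in Ezh2-Y726D against GFP and 2 in Ezh2 against Ezh2-Y726D, and of the GABA-B genes 1 passed, in Ezh2 against GFP. Of the 961 regions at the partner genes, 48 were gained, where 4.77% of all regions were, and 17 lost, where 4.72% were, with Ezh2-Y726D against GFP.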

How the data were processed

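ATAC-Seq peak lists of 8 sorted RGC libraries were analysed (3 AAV2-GFP, 3 AAV2-Ezh2, 2 AAV2-Ezh2-Y726D). The authors deposited 1 peak list per library, and the submitters' processing notes name cutadapt, Bowtie2, SAMtools, Picard, MACS2, deepTools and the build GRCm38. Their roles, versions and parameters were not given in the sources used here. In the deposited narrowPeak lists, column 7 is the ratio, a fold enrichment over the local background, and columns 8 and 9 are the −log10 of the p-value and of the q-value. The deposited score column, which the authors' files give as 10 times column 9 in whole numbers, and the summit positions were not used in any result. Read depth is unknown, since the lists hold no counts, and fold follows depth, so only ranks within a list were compared.

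Peaks sharing at least 1 base were merged over the 8 lists. A region or peak belonged to a gene when it overlapped the RefSeq gene (GRCm38.p6 coordinates) or 10 kb around it. For the 8 genes without a listed start, regions within 1 kb of either gene end were taken. Ranks of fold were turned into normal scores and fitted with limma over the regions with a peak in all 8 lists, and log2 of peaks per gene (pseudocount 0.5, divided by list length) with limma over genes with a mean of at least 3 peaks. One fit per measure held all 3 groups without covariates, p-values were adjusted by Benjamini-Hochberg over all features, and the threshold was 0.05. Presence was counted without a test. Both fits were tested on simulated data. R 4.3.3, limma 3.58.1, Python 3.11.15, pandas 2.3.3, NumPy 2.4.6 and matplotlib 3.10.9 were used.

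Named were all genes called in peak number, per comparison up to 10 called regions with the largest difference and up to 10 gained or lost regions with the highest percentile, and the strongest region of each class. The called regions at starts, the Grik2 start, Gria1 region 18, Grin2d region 2 and Gabrg3 region 17 were chosen after their values were seen. The members and lists were chosen with earlier results of these data known. Alternatives covered the measure ranked, the peaks and regions entering, list length, scaling, pseudocount, filter, window, replicate blocks and each replicate left out.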

Additional observations from a re-analysis of the deposited data

How the results depend on the processing

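The sign of no named gene or region turned under any alternative. Of 23 named gene results, 7 passed in every alternative and 16 missed the threshold in at least 1, and of 33 named region results the numbers were 6 and 27. An alternative that a region did not enter was not counted for that region. Ranking regions with a peak in at least 5 lists gave 42 called receptor regions for Ezh2 against GFP, 40 for Ezh2-Y726D against GFP and 65 for Ezh2 against Ezh2-Y726D, with 4612 higher and 6092 lower regions in the genome for the first in place of 1106 and 1977. Requiring a peak to cover 0.5 of the region left 5 called for Ezh2-Y726D against GFP, 2 higher and 3 lower, which turned the balance of directions, and 19 for Ezh2 against Ezh2-Y726D. Fewer regions enter that fit. With −log10 q of at least 5, 7 regions were gained or lost for Ezh2 against GFP. The 1 gene called for Ezh2 against GFP became 0 with unscaled peak numbers, lists of equal length, −log10 q of at least 5, either replicate block, or centring on the median gene, a scaling chosen after seeing the data. Unscaled peak numbers left 3 genes for Ezh2-Y726D against GFP and 4 for Ezh2 against Ezh2-Y726D, and lists of equal length 7 for Ezh2-Y726D against GFP. The cause of these shifts was not tested.

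Correlations between the deviations of same-numbered samples over regions were small, from -0.0151 to 0.0478 by the titles. By the numbers in the peak names they were all positive, from 0.0018 to 0.0478, against -0.0482 to 0.0303 for samples of different numbers. Whether same-numbered samples shared a batch was not settled. With the replicate block by titles, 10, 17 and 30 regions and 0, 12 and 11 genes were called in the 3 comparisons. With the block by the numbers in the peak names, which differ from the titles for Ezh2-Y726D, 8, 9 and 20 regions and 0, 6 and 8 genes were.

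Leaving out each list in turn gave 3 to 8 ranked regions for Ezh2 against GFP, 3 to 20 for Ezh2-Y726D against GFP and 5 to 35 for Ezh2 against Ezh2-Y726D. Gained or lost regions numbered 25 to 40, 91 to 143 and 87 to 145, and genes called 0 to 1, 4 to 11 and 7 to 13. The 2 Ezh2-Y726D lists limit the precision of every comparison that uses them, and where 1 was left out the other was assumed to vary like the remaining groups.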
